A study of Mus musculus with 32 samples.

Results

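The midbrain and the medulla oblongata of control mice were set against each other, each read on 8 arrays of messenger RNA, 1 of either region from each of 8 animals. These 16 arrays, out of 32 in the series, were taken by the labels' genotype and region and by no measured value. The groups were control midbrain after chronic constriction injury (CCI, loose ligatures around the sciatic nerve that give a lasting model of neuropathic pain), control midbrain after a sham operation, control medulla after CCI and control medulla after sham, with 4 arrays each. The other 16 arrays are the same groups in mice lacking Cckbr, the cholecystokinin B receptor (KO mice), and were used only as a second set of animals. Strain, sex and age are not given in the sources used here.

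The midbrain lies at the rostral end of the brainstem and holds the dopamine neurons of the substantia nigra and ventral tegmental area, the colliculi, the red nucleus and the periaqueductal grey. The medulla lies at its caudal end, carries long fibre tracts and holds the hypoglossal and other cranial motor nuclei, the dorsal column nuclei and the respiratory network. During development Hox genes are switched on in the hindbrain and spinal cord in an order that follows their position in each cluster, with low paralogue numbers reaching furthest forward, while the midbrain stays free of Hox expression and is specified by genes such as Otx2 and the engrailed pair En1 and En2.

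Each value is an intensity, here put on a common distribution between arrays, and a difference is given as midbrain minus medulla of log2 values taken after adding 16, so that the change of a dim gene comes out too small. The first principal component of the 16 arrays held 21.9% of the variance and parted the regions, with midbrain arrays between 13.6 and 21.9 and medulla arrays between -21.5 and -10.6. Across probe sets (which are no replicates) Pearson correlations ran from 0.979 to 0.989 within a group and from 0.972 to 0.986 between regions. The precision is limited by the number of arrays, with a median standard error (SE) of 0.09 for the log2 difference. As a level of background, the 95th percentile of genes of the senses, hair, placenta and gametes was used, 82.2 intensity units. Where all arrays of 1 region lay below it and the mean log2 level of the other lay above it, the fold is written as a lower bound. That bound is set against the background level, with the fitted log2 difference beside it. Where the mean of the brighter region lay under background too, no bound is given. As a sign of RNA quality, the log2 ratio of 3 prime over 5 prime probe sets of Gapdh was -0.204 to -0.0923 in midbrain (median -0.144) and -0.164 to -0.0406 in medulla (median -0.111). It was lower in midbrain in 8 of 8 animals (mean difference -0.035, exact sign-flip permutation test, two-sided, p = 0.00781, the smallest that 8 pairs can give). The same ratio of Actb was higher in midbrain in 6 of 8 animals (mean difference 0.0245, exact permutation p = 0.414), and the part of either ratio in the regional differences was not tested.

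Of 22626 probe sets, 2954 (13.1%) passed an adjusted p of 0.05 between the regions, 1535 (6.78%) higher and 1419 (6.27%) lower in midbrain. With 1 probe set for each of 12393 genes, 1833 genes (14.8%) passed, 950 (7.67%) higher and 883 (7.12%) lower, and these shares are the background for every count below. The gene lists were chosen with earlier results of these data known, so a list's count beside this background is a description only. Some genes stand on more than 1 list, so the counts of different lists are not independent. Most differences were small: 87.2% of the probe sets that passed differed by less than 1.5-fold. At least 2-fold differences were found for 107 probe sets (0.473%), 42 higher (0.186%) and 65 lower (0.287%) in midbrain. The ranges of the regions did not overlap for 644 genes (5.2%), with all 8 midbrain arrays above all 8 medulla arrays for 343 (2.77%) and below them for 301 (2.43%). A number in the array descriptions, of unstated meaning, was treated as a possible batch and is called the array code here. Both arrays of an animal share a code, and 4 animals carry 1 of 2 lower codes and 4 the higher code. Fits of 8 arrays found 637 probe sets within the lower codes and 502 within the higher code, and each of the 2954 had the same sign in both, which is a description, since the same arrays made the calls. Of 142 genes named here that passed, 79 missed the threshold in at least 1 of these smaller fits and 21 in both, and 23 differed in size by more than 1.5 times between them, for which both values are given.

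Genes of dopamine neurons marked the midbrain. Slc6a3, the dopamine transporter of the plasma membrane, read 501 to 756 in midbrain (median 552), against 0 to 14.3 in medulla (median 2.18). Every midbrain array was bright and every medulla array stood far below the background level, which gives at least 7.0-fold higher in midbrain (log2 difference 4.86, SE 0.15, adjusted p = 4.72e-11). Its difference was 5.07 within the lower array codes (adjusted p = 1.77e-06) and 4.65 within the higher code (adjusted p = 0.000192). Th, tyrosine hydroxylase, which makes the precursor of dopamine and noradrenaline, read 312 to 429.5 in midbrain (median 343), against 55.2 to 110.1 in medulla (median 81.4). The ranges lay well apart (log2 difference 1.91, SE 0.11, adjusted p = 5.53e-08), although the medulla, which has noradrenaline and adrenaline neurons of its own, was above background on some arrays. Ddc, the decarboxylase shared by dopamine and serotonin synthesis, read 855 to 1089 in midbrain (median 913), against 315 to 426 in medulla (median 342), again without overlap (log2 difference 1.36, SE 0.07, adjusted p = 3.14e-08). In bulk tissue, fewer cells of a type and less RNA per cell cannot be told apart.

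Of 24 dopamine neuron genes measured, 12 were higher and 1 was lower in midbrain, and the median difference of the list was 0.36, against -3.2e-05 over all genes. Drd2, the dopamine autoreceptor, read 69.7 to 112 in midbrain (median 93.2), against 34.2 to 58.6 in medulla (median 46.9), at least 1.12-fold higher (log2 difference 0.82, SE 0.10, adjusted p = 9.25e-05). Chrna6, a nicotinic receptor subunit of dopamine terminals, read 72.7 to 96.4 in midbrain (median 82.2), against 19.2 to 43.5 in medulla (median 30.4), at least 1.01-fold higher (log2 difference 1.09, SE 0.09, adjusted p = 1.11e-06). Klhl1, a kelch protein of neurons, differed by 0.78 and Gch1, which supplies the cofactor of Th, by 0.44. All of these had every midbrain array above every medulla array except Gch1. Other genes of the list did not follow. Aldh1a1, a retinal dehydrogenase of ventral dopamine neurons, read 1826 to 2157 in midbrain (median 2007), against 1985 to 2505 in medulla (median 2184), and did not pass (log2 difference -0.12, SE 0.06, adjusted p = 0.188). Sncg, gamma-synuclein, was the gene that was lower, at 389 to 540.1 in midbrain (median 436), against 668 to 929 in medulla (median 778) (log2 difference -0.80, SE 0.07, adjusted p = 2.02e-06). Nr4a2, a nuclear receptor needed by dopamine neurons, did not pass on its brightest probe set (log2 difference -0.15, SE 0.12, adjusted p = 0.49), while its second probe set differed by 0.85 (adjusted p = 0.00026). Lmx1a, Pitx3 and Fgf20 stayed under background on every array of both regions.

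**Figure D1:**
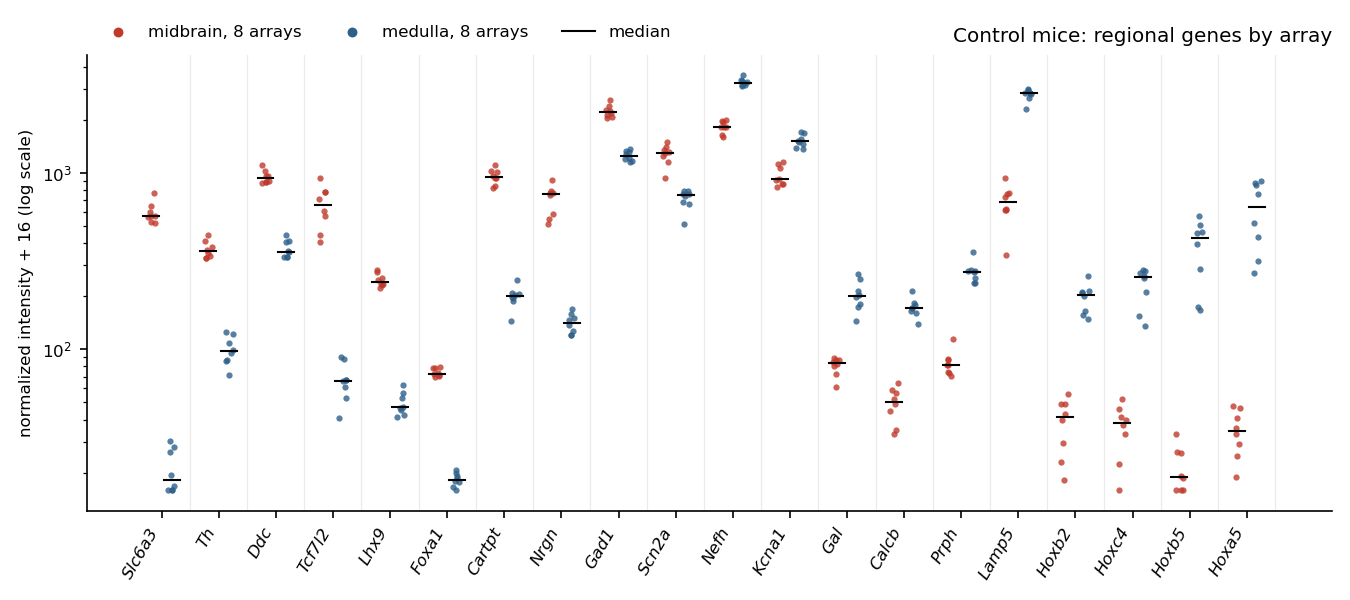
Normalized intensity plus 16, on a log axis, of 20 genes on each of 8 midbrain and 8 medulla arrays of control mice, with the median as a bar. Slc6a3 lies at 501 to 756 on midbrain arrays and at 0 to 14.3 on medulla arrays before the 16 is added, and Hoxa5 at 2.92 to 31.8 and 256 to 888.

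Serotonin and noradrenaline genes were split between markers. Slc6a4, the serotonin transporter of raphe neurons, which lie in both regions, read 103 to 199.5 in midbrain (median 164), against 38.8 to 127 in medulla (median 75.0) (log2 difference 0.93, SE 0.16, adjusted p = 0.0012), and the ranges overlapped. Slc6a4 differed by 1.21 within the lower array codes (adjusted p = 0.0289) and 0.65 within the higher code (adjusted p = 0.163). Dbh, which turns dopamine into noradrenaline, read 81.2 to 141 in midbrain (median 113), against 95.6 to 209 in medulla (median 139) and Pnmt, which makes adrenaline, 209 to 436 in midbrain (median 297), against 241 to 383 in medulla (median 305). Neither passed (log2 differences -0.30, adjusted p = 0.178, and -0.02, adjusted p = 0.943). Of 12 genes measured in the list, 5 were higher and 0 lower in midbrain, Ddc, Gch1 and Gata3 among them, which stand on other lists named here too.

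Transcription factors of the midbrain formed a second group, of which 14 of 28 measured genes were higher and 1 lower in midbrain (median difference 0.32). The group is not separate from other lists: En1, Otx2 and Foxa2 are also counted among the dopamine neuron genes, and Tcf7l2 among the thalamus genes below. Tcf7l2, a nuclear effector of Wnt signalling that is strong in thalamus and parts of the midbrain, read 389.5 to 924 in midbrain (median 643), against 24.6 to 74.1 in medulla (median 50.2). It was at least 7.5-fold higher in midbrain (log2 difference 3.29, SE 0.19, adjusted p = 5.45e-08), and its other 3 probe sets passed in the same direction. Within the midbrain arrays it spread by more than 2-fold, with the lowest values in sham 1 (389.5) and sham 3 (429) and the highest in CCI 3 (924). Foxa1, a forkhead factor of floor plate and dopamine neurons, read 53.7 to 63.4 in midbrain (median 56.6), against 0 to 4.82 in medulla (median 2.30). Its values lie under the background level in both regions, so no fold is given, yet the ranges did not overlap (log2 difference 2.02, SE 0.06, adjusted p = 1.10e-11). Foxa2, its close relative, differed in the same direction (log2 difference 0.86, SE 0.15, adjusted p = 0.00118).

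Gata3 and Tal1, which act together in GABA neurons of the midbrain and hindbrain, were higher in midbrain. Gata3 read 111 to 166 in midbrain (median 145), against 26.0 to 75.5 in medulla (median 41.1), at least 1.74-fold higher (log2 difference 1.47, SE 0.14, adjusted p = 8.61e-06). Tal1 read 136 to 159 in midbrain (median 144), against 35.4 to 57.5 in medulla (median 41.9), at least 1.76-fold higher (log2 difference 1.41, SE 0.08, adjusted p = 3.14e-08). Both engrailed genes, which mark the midbrain and its border with the hindbrain, were higher as well. En1 read 33.0 to 59.6 in midbrain (median 50.6), against 3.39 to 30.8 in medulla (median 7.81) (log2 difference 1.33, SE 0.15, adjusted p = 4.17e-05), under the background level in both regions, and En2 read 57.4 to 85.6 in midbrain (median 64.9), against 18.3 to 51.4 in medulla (median 22.7) (log2 difference 1.02, SE 0.14, adjusted p = 0.000218). En2 is also a cerebellar gene, and its midbrain median lay under the background level too. Otx2, the homeobox gene of forebrain and midbrain, was higher in midbrain but overlapped, at 90.6 to 163 in midbrain (median 111), against 8.07 to 104 in medulla (median 47.9) (log2 difference 1.18, SE 0.27, adjusted p = 0.00911). It is also a gene of the choroid plexus, described further below. Zfpm2 (0.62), Irx1 (0.57), Irx2 (0.61), Lhx1 (0.44) and Sox14 (0.34) had smaller log2 differences of the same sign, with Lhx1 at least 1.03-fold higher. Irx2 differed by 0.86 within the lower array codes (adjusted p = 0.0157) and 0.36 within the higher code (adjusted p = 0.149). Meis2, a cofactor of Hox proteins that the list holds for its part in tectal development, was the gene that was lower (log2 difference -0.50, SE 0.08, adjusted p = 0.00117). Meis2 differed by -0.32 within the lower array codes (adjusted p = 0.157) and -0.67 within the higher code (adjusted p = 0.0248). Pax7 stayed under background on every array. Its adjusted p was 0.0995, and with the animal as a replicate block it passed (0.39, adjusted p = 0.0291). Pax5, Wnt1, Fgf8 and Pax3, early genes of the isthmus and dorsal midbrain, did not pass, with log2 differences from -0.13 to 0.05.

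Among the greatest differences on the midbrain side were genes of several other lists. Lhx9, a LIM homeobox gene of thalamus and pretectum, read 206 to 266 in midbrain (median 226), against 25.1 to 46.9 in medulla (median 30.9), at least 2.81-fold higher (log2 difference 2.33, SE 0.09, adjusted p = 4.64e-10). Lhx2, its relative in cortex and elsewhere, read 89.7 to 222 in midbrain (median 122.7), against 22.0 to 34.95 in medulla (median 30.0), at least 1.52-fold higher (log2 difference 1.63, SE 0.12, adjusted p = 6.88e-07). Tfap2d, an AP-2 factor of the superior colliculus, read 96.9 to 108 (median 103) in midbrain and was under background on every medulla array, at least 1.25-fold higher (log2 difference 1.54, SE 0.07, adjusted p = 4.59e-09). Nrgn, neurogranin, a calmodulin-binding protein of forebrain neurons, read 494 to 895 in midbrain (median 741), against 104 to 153 in medulla (median 126) (log2 difference 2.30, SE 0.12, adjusted p = 3.14e-08), and Tnnt1, a troponin T that is also found in thalamus, read 118 to 198 in midbrain (median 168), against 40.8 to 71.0 in medulla (median 53.2), at least 1.92-fold higher (log2 difference 1.28, SE 0.11, adjusted p = 3.68e-06). Doc2b, a calcium sensor of vesicle release, read 92.3 to 155 in midbrain (median 127), against 19.1 to 66.5 in medulla (median 32.8), at least 1.495-fold higher (log2 difference 1.47, SE 0.16, adjusted p = 1.99e-05). None of these 6 overlapped between the regions. Lack of overlap was a condition for the 15 genes named for size in each direction, so for those genes it is no separate result. Markers of tissue rostral to the midbrain were counted beside them. Of 21 thalamus and hypothalamus genes 6 were higher and 0 lower, with the summed level at 3725 to 4738 intensity units in midbrain and 2714 to 3132 in medulla. The 6 were Tcf7l2, Lhx9, Tnnt1, Ntng1, Ramp3, which modifies the calcitonin receptor (0.75), and Calb2, calretinin (0.30), and the regions did not overlap for the first 5. Ramp3 differed by 0.57 within the lower array codes (adjusted p = 0.359) and 0.94 within the higher code (adjusted p = 0.126). Of the thalamus markers set out for this check, Tnnt1 was higher, Prkcd did not pass (0.01, adjusted p = 0.981) and Gbx2 was under background on every array. Of the hypothalamus markers, Avp (-0.05, adjusted p = 0.857), Oxt (-0.05, adjusted p = 0.865), Pomc (-0.05, adjusted p = 0.802) and Hcrt (0.0078, adjusted p = 0.979) did not pass. Of 14 cortex and hippocampus genes 4 were higher, Nrgn and Lhx2 among them, and 2 lower, Lamp5 and Neurod2. The markers Neurod6 and Tbr1 were under background throughout. The summed level of the list was 2139 to 2564 in midbrain and 3176 to 3866 in medulla. Lamp5 alone read 326 to 924 in midbrain and 2273 to 2955 in medulla, so the direction of the sum is that of this gene. Pineal and pituitary genes gave 0 of 13 in either direction, with 10 under background. The part of tissue rostral to the midbrain in these differences was not tested.

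Hox genes marked the medulla, and 8 of the 15 greatest differences without overlap on its side were theirs. In all, 12 of 31 measured Hox genes were lower and 0 higher in midbrain. Hoxa5 read 2.92 to 31.8 in midbrain (median 18.6), against 256 to 888 in medulla (median 624). Every medulla array was above background and every midbrain array below it, so that Hoxa5 was at least 6.65-fold lower in midbrain (log2 difference -4.08, SE 0.26, adjusted p = 1.40e-07). Its difference was -4.25 within the lower array codes (adjusted p = 0.00196) and -3.92 within the higher code (adjusted p = 0.015). Hoxb5 read 0 to 17.2 in midbrain (median 2.90), against 150.4 to 554 in medulla (median 409), at least 4.00-fold lower (log2 difference -4.06, SE 0.27, adjusted p = 1.91e-07). Hoxc4 read 0 to 36.2 in midbrain (median 22.5), against 119 to 264 in medulla (median 240.2), and was at least 2.51-fold lower (log2 difference -2.72, SE 0.23, adjusted p = 1.96e-06). Hoxb2, of the low paralogue number 2, read 2.28 to 39.9 in midbrain (median 25.2), against 134 to 243 in medulla (median 188), and was at least 2.15-fold lower (log2 difference -2.42, SE 0.21, adjusted p = 3.39e-06). Hox proteins are homeobox transcription factors that hold positional identity along the hindbrain and cord.

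The genes parted by paralogue number. All 10 genes measured with numbers 2 to 5 were lower in midbrain, namely Hoxa2 (-1.33), Hoxb2, Hoxa3 (-2.52), Hoxb3 (-1.72), Hoxa4 (-1.70), Hoxb4 (-0.72), Hoxc4, Hoxa5, Hoxb5 and Hoxc5 (-0.85), with log2 differences in brackets. As bounds, Hoxa3 was at least 1.52-fold, Hoxb3 at least 1.25-fold and Hoxa4 at least 1.12-fold lower. Within the higher array code 2 of the 10 did not pass. Hoxc5 differed by -1.31 within the lower array codes (adjusted p = 0.00373) and -0.39 within the higher code (adjusted p = 0.248). Hoxb4 differed by -0.79 within the lower array codes (adjusted p = 0.0271) and -0.66 within the higher code (adjusted p = 0.132). Hoxa3 and Hoxb4 each have a second probe set that did not pass (-0.23, adjusted p = 0.49, and -0.19, adjusted p = 0.67). At number 6, Hoxb6 was at least 1.58-fold lower (log2 difference -2.81, SE 0.41, adjusted p = 0.000333), while the brightest probe set of Hoxc6 was not (log2 difference -0.22, SE 0.11, adjusted p = 0.25); another of its 3 probe sets passed (-1.13, adjusted p = 0.0036). Of 17 genes with numbers 7 to 13, 0 passed, and 15 were under background on every array of both regions. Of the 2 genes with number 1, Hoxd1 passed at levels under background (log2 difference -0.85, SE 0.14, adjusted p = 0.000901), and Hoxb1 did not. Hoxd1 differed by -1.09 within the lower array codes (adjusted p = 0.0231) and -0.60 within the higher code (adjusted p = 0.0621).

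Medulla arrays differed among themselves in some of these genes. Hoxb6 read 218, 276, 31.1 and 248 in CCI medulla 1 to 4 and 302, 175, 31.1 and 68.1 in sham medulla 1 to 4. Hoxb5 read 446, 441, 158 and 489.9 in CCI medulla 1 to 4 and 554, 378, 150.4 and 269.7 in sham medulla 1 to 4. The lowest medulla arrays of both genes were sham 3, CCI 3 and sham 4. Htr5b, a serotonin receptor of the inferior olive, read 93.6, 88.2, 11.6 and 96.9 in CCI medulla 1 to 4 and 89.3, 46.5, 9.44 and 31.2 in sham medulla 1 to 4, and Serpinb1b, a serine protease inhibitor, read 379, 457, 210.1 and 402 in CCI medulla 1 to 4 and 536, 418, 189 and 290.5 in sham medulla 1 to 4. Both had the same 3 arrays at their low end, as did Hoxc4. Hoxa2, of a low paralogue number, spread less, at 71.9, 60.8, 52.9 and 62.95 in CCI medulla 1 to 4 and 82.8, 54.3, 61.5 and 62.1 in sham medulla 1 to 4. All but the highest of these Hoxa2 values lie under the background level of 82.2, which limits what their spread can show. The brighter Hoxb2 and Hoxa3 ran from 134 to 243 and from 82.1 to 168 in medulla. The order of arrays was seen in the values and no test was made of it. All 3 low arrays carry the higher array code, as does CCI 4, which was not low. Within the higher code Hoxb6 did not pass (-1.95, adjusted p = 0.133), while within the lower codes it did (-3.67, adjusted p = 0.00336). The same held for Htr5b (-0.72, adjusted p = 0.476 in the higher code and -1.82, adjusted p = 0.00887 in the lower codes).

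**Figure D2:**
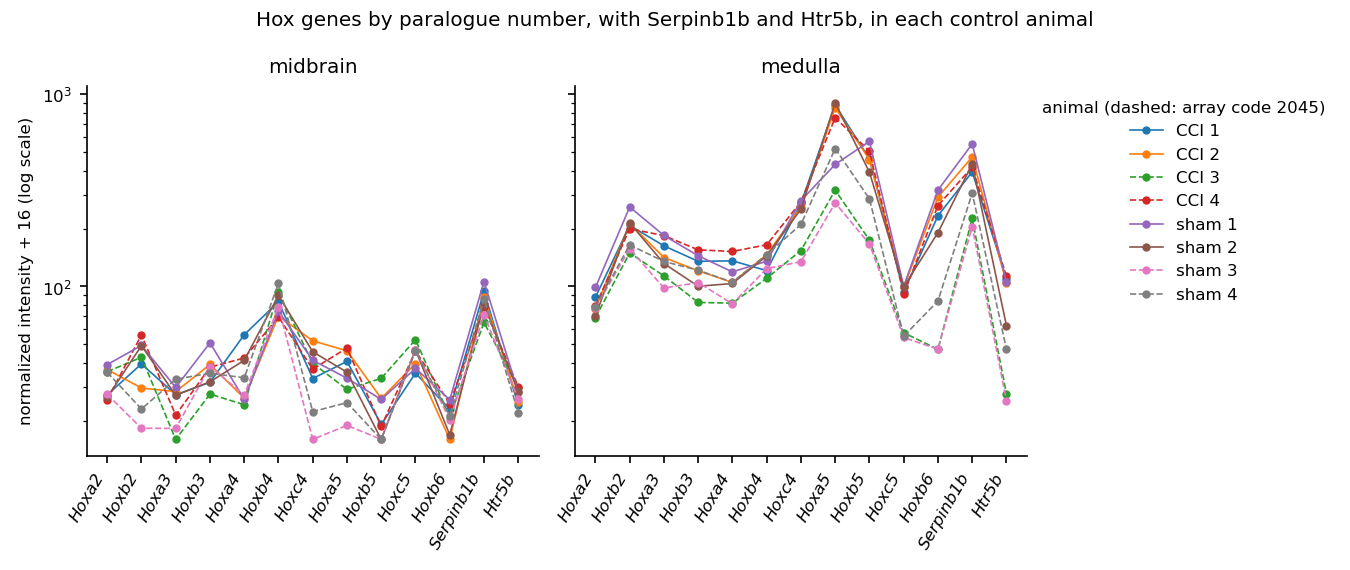
Normalized intensity plus 16, on a log axis, of 11 Hox genes in order of paralogue number and of Serpinb1b and Htr5b, with 1 line for each control animal (dashed for the higher array code), midbrain on the left and medulla on the right. In medulla Hoxb6 lies at 31.1 in CCI 3 and sham 3 and at 68.1 in sham 4, and the midbrain lines stay low throughout the Hox genes.

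Promoter sequence is shown for a few of the genes that mark a region, since the members of a cluster or a pathway moved together: the dopamine genes Th and Slc6a3, Hoxa5 and Hoxa3 of one Hox cluster, and Prph, the peripheral neurofilament protein of motor neurons. The sequences are the 250 bases before the start of each gene in RefSeq's annotation of GRCm38.p6, 5′ to 3′ on the gene's strand. Each start is the one that the table lists, which for Hoxa3 lies upstream of that of Hoxa5, beyond the genes between them. Capitals mark matches, on either strand, to the cyclic AMP response element TGACGTCA and to the TATA box TATAAA, the only motifs searched, which do not overlap each other.
Th, chr7:142899996-142900245, minus strand: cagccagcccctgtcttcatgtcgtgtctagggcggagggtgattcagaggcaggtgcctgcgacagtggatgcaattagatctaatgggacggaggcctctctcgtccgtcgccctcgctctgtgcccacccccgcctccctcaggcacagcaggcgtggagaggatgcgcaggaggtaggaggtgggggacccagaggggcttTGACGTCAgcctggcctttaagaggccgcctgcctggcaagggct
Slc6a3, chr13:73536497-73536746, plus strand: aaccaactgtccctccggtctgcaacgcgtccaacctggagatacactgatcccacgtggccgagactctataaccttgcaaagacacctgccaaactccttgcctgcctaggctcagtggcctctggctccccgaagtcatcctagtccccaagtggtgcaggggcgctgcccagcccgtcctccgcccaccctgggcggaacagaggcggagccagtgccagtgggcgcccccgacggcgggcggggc
Hoxa5, chr6:52204588-52204837, minus strand: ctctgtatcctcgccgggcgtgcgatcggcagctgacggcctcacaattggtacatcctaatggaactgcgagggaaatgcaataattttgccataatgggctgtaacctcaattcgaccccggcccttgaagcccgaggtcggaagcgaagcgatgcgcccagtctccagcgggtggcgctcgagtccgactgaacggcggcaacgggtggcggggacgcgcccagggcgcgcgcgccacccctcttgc
Hoxa3, chr6:52213068-52213317, minus strand: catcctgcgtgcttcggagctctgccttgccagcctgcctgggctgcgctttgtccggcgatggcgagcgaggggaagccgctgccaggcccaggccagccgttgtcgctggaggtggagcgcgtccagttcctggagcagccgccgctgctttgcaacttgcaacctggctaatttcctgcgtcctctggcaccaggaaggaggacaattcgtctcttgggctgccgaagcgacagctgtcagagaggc
Prph, chr15:99054924-99055173, plus strand: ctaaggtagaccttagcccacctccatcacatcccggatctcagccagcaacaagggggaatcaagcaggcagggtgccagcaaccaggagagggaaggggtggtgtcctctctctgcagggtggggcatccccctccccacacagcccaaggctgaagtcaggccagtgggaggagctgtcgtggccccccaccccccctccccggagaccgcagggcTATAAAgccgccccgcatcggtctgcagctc
The cyclic AMP response element stands in the Th window, beginning 45 bases before the start, and in 1.55% of the 32841 promoters of the table. The TATA box stands in the Prph window, beginning 31 bases before the start, and in 12.4% of all. The other 3 windows hold neither string. The Hoxa5 window has 28 CG dinucleotides and that of Hoxa3 18, against 16 for Slc6a3, 13 for Th and 7 for Prph, with a median of 6 over all promoters. Promoters were found in the table for 23 of the 30 genes named for the size of their difference, and a match is a description of the sequence only.

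Among 27 other transcription factors of the hindbrain, 6 were lower and 0 higher in midbrain. Lbx1, which specifies dorsal interneurons of the hindbrain and cord, read 21.1 to 34.1 in midbrain (median 29.6), against 64.8 to 127 in medulla (median 89.9), at least 1.10-fold lower (log2 difference -1.27, SE 0.11, adjusted p = 1.90e-06). Meis1, a partner of Hox proteins, read 98.7 to 144 in midbrain (median 124), against 215 to 276 in medulla (median 254) (log2 difference -0.94, SE 0.08, adjusted p = 1.40e-06), and Tshz1, a teashirt zinc finger factor, 150.3 to 222 in midbrain (median 174), against 243 to 312 in medulla (median 266) (log2 difference -0.57, SE 0.07, adjusted p = 0.000116). The regions did not overlap for these 3. Tshz1 differed by -0.69 within the lower array codes (adjusted p = 0.0181) and -0.45 within the higher code (adjusted p = 0.0355). Isl1, a LIM homeobox gene of motor and sensory neurons, was lower with overlapping ranges under background (log2 difference -0.70, SE 0.15, adjusted p = 0.00645). Nr2f1, Nr2f2, Pbx3, Irx3 and Irx5 did not pass, with log2 differences from 0.02 to 0.17, and 14 of the 27 were under background in both regions, Phox2a, Atoh1, Tlx3 and Ptf1a among them.

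Cholinergic and cranial motor neuron genes were lower in midbrain, 10 of 17 measured, with 1 higher and a median difference of -0.29. Prph read 54.5 to 98.3 in midbrain (median 65.9), against 221 to 338 in medulla (median 259) (log2 difference -1.71, SE 0.10, adjusted p = 7.43e-08). Its difference was -1.55 within the lower array codes (adjusted p = 0.0124) and -1.88 within the higher code (adjusted p = 0.00617), and its 3 dimmer probe sets did not pass. Calcb, beta-CGRP, a peptide of motor neurons, read 17.1 to 48.3 in midbrain (median 34.4), against 123.1 to 199 in medulla (median 155), at least 1.90-fold lower (log2 difference -1.84, SE 0.14, adjusted p = 6.88e-07). Uts2, urotensin 2, another motor neuron peptide, read 0 to 23.5 in midbrain (median 9.84), against 48.9 to 92.6 in medulla (median 73.3) (log2 difference -1.78, SE 0.21, adjusted p = 4.66e-05). None of these overlapped, which was a condition for naming them by size. The medulla median of Uts2 lay under the background level too. Slc18a3, which loads acetylcholine into vesicles, read 36.2 to 49.1 in midbrain (median 43.2), against 91.8 to 147 in medulla (median 119.8), at least 1.45-fold lower (log2 difference -1.21, SE 0.07, adjusted p = 8.84e-08). Slc5a7, the choline transporter (-0.69), Chodl, a lectin of fast motor neurons (-0.89), and Ache, acetylcholinesterase (-0.37), had smaller log2 differences of the same sign. Chodl differed by -0.58 within the lower array codes (adjusted p = 0.0743) and -1.20 within the higher code (adjusted p = 0.0355). The midbrain has cranial motor nuclei too, those of the eye muscles, and Mnx1, Isl2 and Lhx4, early motor neuron genes, were under background in both regions.

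Neurofilament and large axon genes were lower in midbrain in 9 of 11 cases, with 0 higher and all 9 without overlap. Prph and Sncg, among the 9, are also counted on lists given above. Nefh, the heavy neurofilament subunit of large axons, read 1582 to 1967 in midbrain (median 1803), against 3089 to 3547 in medulla (median 3231) (log2 difference -0.84, SE 0.05, adjusted p = 1.50e-07). Nefm, the medium subunit, read 3531 to 4224 in midbrain (median 3937), against 5222 to 5776 in medulla (median 5505) (log2 difference -0.49, SE 0.04, adjusted p = 2.54e-06) and Nefl, the light subunit, 3798 to 4315 in midbrain (median 4059), against 5017 to 6164 in medulla (median 5347) (log2 difference -0.43, SE 0.04, adjusted p = 1.12e-05). None of the 3 overlapped. Syt2 (-0.64) and Vamp1 (-0.39), release proteins of fast synapses, Pvalb (-0.51), the calcium buffer parvalbumin, and Ina (-0.29), internexin, had log2 differences of the same sign. Of pan-neuronal genes 5 of 22 were higher and 2 lower. Syt1, the main calcium sensor of forebrain synapses, read 654 to 931 in midbrain (median 849.6), against 282 to 510.2 in medulla (median 439) (log2 difference 0.92, SE 0.10, adjusted p = 3.82e-05), Gap43, a growth cone protein, 1730 to 2134 in midbrain (median 1938), against 1061 to 1436 in medulla (median 1193) (log2 difference 0.68, SE 0.06, adjusted p = 2.65e-06), and Stx1a, a syntaxin, 145 to 209 in midbrain (median 181), against 79.6 to 120.5 in medulla (median 94.99) (log2 difference 0.77, SE 0.09, adjusted p = 6.22e-05). Syn1 (0.07), Eno2 (-0.01), Rbfox3 (-0.03) and Map2 (0.09) had log2 differences near 0 that did not pass.

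Myelin genes were lower in midbrain by small steps, 16 of 24 measured with 0 higher and a median difference of -0.27. Gjb1, connexin 32 of oligodendrocytes, read 168 to 227 in midbrain (median 194), against 264 to 360.2 in medulla (median 307) (log2 difference -0.61, SE 0.07, adjusted p = 6.61e-05). Ugt8a, which makes galactosylceramide, read 906 to 1218 in midbrain (median 1182), against 1401 to 1630 in medulla (median 1582) (log2 difference -0.46, SE 0.06, adjusted p = 0.000214) and Mag, myelin-associated glycoprotein, 1199 to 1611 in midbrain (median 1412), against 1721 to 2084 in medulla (median 1910) (log2 difference -0.41, SE 0.06, adjusted p = 0.000372). None of the 3 overlapped. Within the lower array codes Mag did not pass (-0.36, adjusted p = 0.0802), and within the higher code it did (-0.47, adjusted p = 0.0434). Sox10 (-0.37), Mog (-0.30), Fa2h (-0.37), Myrf (-0.33) and Cnp (-0.15) had log2 differences of the same sign. Fa2h differed by -0.46 within the lower array codes (adjusted p = 0.0323) and -0.28 within the higher code (adjusted p = 0.075). Mbp, myelin basic protein, near the top of the intensity scale, read 7447 to 8384 in midbrain (median 7880), against 7570 to 8162 in medulla (median 7880), and did not pass (log2 difference 0.001, SE 0.04, adjusted p = 0.993); of its other 7 probe sets 1 passed higher and 1 lower. Gsn, gelsolin, was lower on 4 of its other probe sets as on the brightest (-0.44), and higher on 1 (0.48, adjusted p = 0.0029). Pmp22 (-0.54), a myelin protein of peripheral nerve also made in brain, was lower, while Ncmap, which is more particular to Schwann cells, was not (log2 difference -0.05, SE 0.08, adjusted p = 0.767), and Dhh and Cldn19 were under background.

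Astrocyte genes went both ways, 5 of 25 higher and 7 lower in midbrain. Gfap, the filament protein of fibrous astrocytes, read 469 to 771 in midbrain (median 639), against 794 to 1850 in medulla (median 1004) (log2 difference -0.72, SE 0.16, adjusted p = 0.00756), with sham medulla 1 the highest. S100b, a calcium-binding protein of astrocytes and oligodendrocytes, read 1188 to 1443 in midbrain (median 1311), against 1741 to 2073 in medulla (median 1960) (log2 difference -0.55, SE 0.05, adjusted p = 2.80e-06), and Slc7a10, a serine and glycine transporter, 360.1 to 482 in midbrain (median 374), against 484 to 656 in medulla (median 557) (log2 difference -0.52, SE 0.07, adjusted p = 0.000208). On the other side Mfge8, a secreted bridging protein of phagocytosis, read 515 to 788 in midbrain (median 599.8), against 205 to 419.8 in medulla (median 309) (log2 difference 0.98, SE 0.12, adjusted p = 0.000102), Slc1a3, the glutamate transporter GLAST, 636 to 807 in midbrain (median 688), against 469 to 630.2 in medulla (median 526) (log2 difference 0.37, SE 0.06, adjusted p = 0.00101), and Agt, angiotensinogen, 1045 to 1202 in midbrain (median 1167), against 752 to 1028 in medulla (median 899) (log2 difference 0.36, SE 0.07, adjusted p = 0.00245). All 6 were without overlap. Gfap differed by -0.998 within the lower array codes (adjusted p = 0.1) and -0.45 within the higher code (adjusted p = 0.166). Agt differed by 0.28 within the lower array codes (adjusted p = 0.121) and 0.45 within the higher code (adjusted p = 0.111). Genes shared by most astrocytes were split. Gja1 (0.04), Aldh1l1 (0.07) and Glul (0.0041) did not pass, while Slc1a2 and Aqp4 were lower and Ndrg2, like Slc1a3, was higher. Microglia and macrophage genes gave 0 of 20 and endothelial and mural genes 0 of 23 in either direction. Csf1r, the growth factor receptor of microglia, read 712 to 829 in midbrain (median 765), against 685 to 858 in medulla (median 720.4), and Cldn5, a tight junction protein of vessels, 222 to 299.5 in midbrain (median 245), against 211 to 290.3 in medulla (median 246). Blood genes gave 0 of 8, with Hba-a1 at -0.03 (adjusted p = 0.901).

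Of 13 genes of GABA and glycine synthesis, transport and glycine receptors, 2 were higher and 2 lower in midbrain, with a median difference of 0.02. Gad1, which makes GABA, read 2019 to 2584 in midbrain (median 2193), against 1135 to 1347 in medulla (median 1224) (log2 difference 0.84, SE 0.04, adjusted p = 1.75e-08), with every midbrain array above every medulla array. Its difference was 0.82 within the lower array codes (adjusted p = 0.00316) and 0.85 within the higher code (adjusted p = 0.015). Gad2, the second GABA-making enzyme, differed by less and overlapped (log2 difference 0.38, SE 0.08, adjusted p = 0.00387). Slc6a9, the glycine transporter GlyT1, was lower, at 1026 to 1279 in midbrain (median 1180), against 1390 to 1746 in medulla (median 1594) (log2 difference -0.45, SE 0.06, adjusted p = 0.000159). Slc6a5, the glycine transporter of inhibitory neurons and a marker of the medulla, passed at levels under background in both regions (log2 difference -0.43, SE 0.10, adjusted p = 0.0111), and the glycine receptor subunits Glra1, Glra3 and Glra4 were under background as well. Slc32a1, the vesicle transporter of both GABA and glycine, read 891 to 1006 in midbrain (median 957), against 948 to 1065 in medulla (median 1039), and did not pass (log2 difference -0.11, SE 0.04, adjusted p = 0.0708).

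Of 13 GABA-A receptor subunits 4 were higher and 2 lower, Gabra6 and Gabra2. Gabra6 is also counted among the cerebellum genes below, and its call was lost in 12 of 16 fits that left out 1 array. Gabrb2 read 118 to 232 in midbrain (median 187), against 73.3 to 114 in medulla (median 88.0) (log2 difference 0.86, SE 0.13, adjusted p = 0.000394) and Gabrg1 332 to 391.8 in midbrain (median 366), against 257 to 313 in medulla (median 290.5) (log2 difference 0.32, SE 0.05, adjusted p = 0.000353), both without overlap. Of 20 glutamate genes 7 were higher and 1 lower. Slc1a2, the lower gene, and Slc1a3, among the higher, are also counted among the astrocyte genes. Gria1 and Gria2, AMPA receptor subunits, were higher, Gria1 at 645 to 834 in midbrain (median 740.5), against 409 to 504 in medulla (median 447) (log2 difference 0.70, SE 0.06, adjusted p = 1.84e-06) and Gria2 at 1215 to 1641 in midbrain (median 1526), against 821 to 1005 in medulla (median 926) (log2 difference 0.67, SE 0.06, adjusted p = 3.87e-06). Slc17a6, the vesicular glutamate transporter of brainstem neurons, read 1911 to 2099 in midbrain (median 1958), against 1378 to 1668 in medulla (median 1581) (log2 difference 0.34, SE 0.05, adjusted p = 0.000161). Gria3 (0.05) and Gria4 (-0.07) did not pass.

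Neuropeptide genes went both ways, with 9 of 37 higher and 5 lower in midbrain. Cartpt, the CART peptide precursor, which is strong in the Edinger-Westphal nucleus of the midbrain, read 803 to 1084 in midbrain (median 936), against 128 to 231 in medulla (median 185) (log2 difference 2.27, SE 0.09, adjusted p = 1.51e-09). Tac1, the precursor of substance P, read 679.9 to 761 in midbrain (median 702), against 388 to 548 in medulla (median 451) (log2 difference 0.64, SE 0.06, adjusted p = 7.41e-06) and Cck, cholecystokinin, 606 to 772 in midbrain (median 679), against 300.2 to 558 in medulla (median 429.7) (log2 difference 0.72, SE 0.12, adjusted p = 0.000877). Pnoc, the nociceptin precursor, differed by 0.48 and Scg2, a granin, by 0.24. These 5 did not overlap. Cck differed by 0.39 within the lower array codes (adjusted p = 0.0802) and 1.04 within the higher code (adjusted p = 0.021). Gal, galanin, was lower in midbrain, at 45.6 to 72.8 in midbrain (median 67.6), against 129 to 252 in medulla (median 184), at least 2.24-fold lower (log2 difference -1.32, SE 0.12, adjusted p = 4.08e-06). Penk, the enkephalin precursor, was lower as well, at 445 to 627 in midbrain (median 498), against 703 to 1246 in medulla (median 857) (log2 difference -0.78, SE 0.10, adjusted p = 0.000133), and Npff was lower at levels under background (log2 difference -0.53, SE 0.10, adjusted p = 0.00276). Sst (-0.03), Chgb (-0.02) and Nts (-0.21) did not pass.

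Peptide, monoamine and acetylcholine receptors gave 10 of 67 higher and 3 lower, and 41 of the 67 were under background in both regions. Cckbr, the receptor that KO mice lack, read 122 to 172 in midbrain (median 166), against 138 to 195 in medulla (median 159), and did not pass (log2 difference -0.0064, SE 0.07, adjusted p = 0.975). Tacr3, the neurokinin B receptor, read 118 to 136 in midbrain (median 122), against 46.6 to 84.3 in medulla (median 67.7) (log2 difference 0.76, SE 0.08, adjusted p = 2.57e-05), without overlap, and Chrna4, a nicotinic subunit, differed by 0.32. Htr5b was the receptor with the greatest difference of the lower genes (log2 difference -1.27, SE 0.31, adjusted p = 0.0124), with the spread between medulla arrays and the values by array code given above.

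Ion channels differed in kind. Of 36 sodium, calcium, HCN and TRP channel genes 13 were higher and 1 lower in midbrain. Scn2a, the sodium channel of initial segments and unmyelinated axons, read 914 to 1483 in midbrain (median 1287), against 496 to 772 in medulla (median 732) (log2 difference 0.84, SE 0.10, adjusted p = 8.52e-05). Within the lower array codes it did not pass (0.84, adjusted p = 0.106), and within the higher code it did (0.83, adjusted p = 0.015). Scn3b, a sodium channel beta subunit, read 528 to 670.5 in midbrain (median 573), against 298 to 362 in medulla (median 349.6) (log2 difference 0.77, SE 0.06, adjusted p = 8.85e-07), Cacna2d1, the calcium channel subunit that binds gabapentin, 122 to 184 in midbrain (median 141), against 70.3 to 99.0 in medulla (median 79.7) (log2 difference 0.69, SE 0.08, adjusted p = 5.33e-05), and Cacna1g, a T-type calcium channel, 185 to 257 in midbrain (median 226), against 126 to 180.2 in medulla (median 141) (log2 difference 0.54, SE 0.07, adjusted p = 0.000196). The gene that was lower was Cacna2d3, a relative of Cacna2d1, at 254 to 302 in midbrain (median 263), against 428 to 523 in medulla (median 473) (log2 difference -0.77, SE 0.05, adjusted p = 1.37e-07). All 5 were without overlap. Cacna1g differed by 0.36 within the lower array codes (adjusted p = 0.0966) and 0.72 within the higher code (adjusted p = 0.021). Cacna2d1 and Cacna2d3, of 1 family, thus went opposite ways.

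Of 57 potassium channel genes 7 were higher and 9 lower. Kcna1, the delayed rectifier of axons near the node of Ranvier, read 818 to 1131 in midbrain (median 902), against 1344 to 1689 in medulla (median 1488) (log2 difference -0.66, SE 0.08, adjusted p = 5.59e-05). Kcnh2, the ERG channel, read 299 to 360.1 in midbrain (median 335), against 486 to 554 in medulla (median 499) (log2 difference -0.57, SE 0.04, adjusted p = 9.21e-07) and Kcnj14, an inward rectifier of cranial motor neurons, 24.9 to 42.4 in midbrain (median 34.8), against 74.8 to 153 in medulla (median 93.9), at least 1.16-fold lower (log2 difference -1.18, SE 0.12, adjusted p = 1.34e-05). Kcnab1, a beta subunit of Kcna channels, differed by -0.54, Kcnk1 by -0.43 and Kcnj10, the rectifier of glia, by -0.40. Kcnk2, the leak channel TREK1, was higher, at 321 to 466 in midbrain (median 398), against 213 to 251 in medulla (median 226) (log2 difference 0.75, SE 0.07, adjusted p = 1.12e-05). All 7 were without overlap. Kcna1 differed by -0.52 within the lower array codes (adjusted p = 0.048) and -0.80 within the higher code (adjusted p = 0.0199). Kcne2 stands on this list and not on that of the choroid plexus, and is given beside the choroid plexus genes because it is known in that epithelium.

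Of 59 axon guidance genes 8 were higher and 6 lower. Sema3a, a repellent that is also held in perineuronal nets, read 48.2 to 74.3 in midbrain (median 65.3), against 124 to 169 in medulla (median 149.5), at least 1.79-fold lower (log2 difference -1.05, SE 0.06, adjusted p = 8.84e-08). Its relative Sema3f was higher, at 78.5 to 101 in midbrain (median 94.1), against 32.6 to 57.1 in medulla (median 47.6), at least 1.11-fold (log2 difference 0.81, SE 0.09, adjusted p = 1.97e-05). Plxnc1, a semaphorin receptor, read 211 to 259 in midbrain (median 230), against 114 to 149.7 in medulla (median 126) (log2 difference 0.79, SE 0.06, adjusted p = 1.01e-06), and Ntng1, a netrin G of thalamic axons, 305 to 492 in midbrain (median 407), against 209 to 268 in medulla (median 223) (log2 difference 0.76, SE 0.09, adjusted p = 7.11e-05). The regions did not overlap for these 4. Sema3f differed by 0.62 within the lower array codes (adjusted p = 0.0334) and 1.002 within the higher code (adjusted p = 0.0174). Among 16 matrix genes, 4 higher and 2 lower, Hapln2, the link protein of nodes of Ranvier, was lower (log2 difference -0.57, SE 0.08, adjusted p = 0.000331), as was Acan, the aggrecan of perineuronal nets (log2 difference -0.40, SE 0.08, adjusted p = 0.00252), while Cspg5, a neural proteoglycan, was higher (log2 difference 0.51, SE 0.07, adjusted p = 0.00027). Acan differed by -0.21 within the lower array codes (adjusted p = 0.255) and -0.59 within the higher code (adjusted p = 0.0273). Of 16 calcium-binding proteins 4 were higher and 3 lower, with Hpca, hippocalcin, at 946 to 1438 in midbrain (median 1129), against 545 to 803 in medulla (median 608) (log2 difference 0.78, SE 0.10, adjusted p = 9.26e-05) and Ncald, neurocalcin, at 1359 to 1664 in midbrain (median 1506), against 978 to 1145 in medulla (median 1104) (log2 difference 0.47, SE 0.05, adjusted p = 3.61e-05). Hpca differed by 0.61 within the lower array codes (adjusted p = 0.0645) and 0.95 within the higher code (adjusted p = 0.032).

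Lamp5, a lysosome-associated membrane protein of some inhibitory neurons, was lower in midbrain. It read 326 to 924 in midbrain (median 663), against 2273 to 2955 in medulla (median 2808) (log2 difference -2.08, SE 0.16, adjusted p = 6.88e-07), without overlap, and was lowest in sham 3 in both regions (326 in its midbrain and 2273 in its medulla). The list it was taken from is that of cortex genes, and its direction was opposite to that of Nrgn and Lhx2 on that list. Immediate early genes gave 2 of 22 higher and 1 lower. Egr1 read 350.5 to 686 in midbrain (median 571), against 247 to 412 in medulla (median 335) (log2 difference 0.72, SE 0.13, adjusted p = 0.00218) and Bdnf, a neurotrophin that activity induces, 111 to 219 in midbrain (median 161), against 67.1 to 127 in medulla (median 85.6) (log2 difference 0.76, SE 0.15, adjusted p = 0.00331), both with overlapping ranges. Fos did not pass (log2 difference 0.28, SE 0.24, adjusted p = 0.536), though it did with the animal as a replicate block (0.28, adjusted p = 0.0442). Retinoic acid genes gave 3 of 16 higher and 1 lower. Of 75 respiratory chain subunits 13 were lower and 0 higher (median difference -0.09), 2 of which passed in KO mice in the same direction. Of 48 ribosomal proteins 5 were higher and 0 lower (median difference 0.07), likewise with 2 in KO mice.

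Choroid plexus genes were lower in midbrain and varied widely between medulla arrays. The choroid plexus of the fourth ventricle lies against the medulla and makes transthyretin, Ttr. Ttr read 188 to 2001 (median 793) in midbrain, with sham 4 the lowest and sham 3 the highest, against 7791 to 9199 on 7 medulla arrays and 948 on that of sham 4. The difference passed (log2 difference -3.14, SE 0.49, adjusted p = 0.000619). The value of 9199 is the highest among the listed genes after normalization and stood for Ttr on 4 medulla arrays. Differences among these arrays are therefore not measured on this scale. The log2 differences of Ttr on this scale, here and below, are set against that shared value and may be too small. On the deposited scale with no further normalization the difference was nearly the same, at -3.13, adjusted p = 0.000642. Kl, klotho, read 16.8 to 36.6 in midbrain (median 20.3), against 18.3 to 394 in medulla (median 154), and was at least 1.77-fold lower (log2 difference -2.07, SE 0.35, adjusted p = 0.00116). Folr1, the folate receptor of this epithelium, read 11.2 to 26.6 in midbrain (median 23.3), against 17.4 to 327 in medulla (median 129.5), and was at least 1.42-fold lower (log2 difference -1.86, SE 0.33, adjusted p = 0.00172). For both, sham medulla 4 lay within the midbrain range.

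Of 15 choroid plexus genes 10 were lower and 1 was higher in midbrain, with a median difference of -1.30 and a summed level of 1032 to 2913 in midbrain and 1413 to 12340 in medulla. Kcne2, a potassium channel subunit of this epithelium that the list does not hold, read 1.20 to 4.08 in midbrain (median 2.87), against 5.94 to 239.5 in medulla (median 82.5) (log2 difference -2.31, SE 0.36, adjusted p = 0.000549), and F5, coagulation factor V, 3.51 to 9.46 in midbrain (median 5.73), against 10.9 to 275 in medulla (median 89.98), at least 1.10-fold lower (log2 difference -2.30, SE 0.33, adjusted p = 0.000323). Sostdc1 (-1.71), Calml4 (-1.49), Cldn2 (-1.47), Aqp1 (-1.30) and Steap1 (-1.13) had log2 differences of the same sign, with Sostdc1 at least 2.38-fold and Calml4 at least 1.26-fold lower. CCI medulla 3 was the highest medulla array for Kl, Folr1, Sostdc1, Kcne2 and F5, and sham medulla 4 the lowest for all 5. Among medulla arrays Otx2, which choroid plexus also expresses, was highest in CCI 1 (104) and CCI 3 (99.2) and lowest in sham 4 (8.07). Without both arrays of sham 4, 2238 probe sets passed in place of 2954, and Ttr differed by -3.24, adjusted p = 6.11e-06 and Kl by -2.37, adjusted p = 0.000111. Within the higher array code, which holds sham 4, Ttr and Kl did not pass (-2.90, adjusted p = 0.191 and -1.88, adjusted p = 0.238), and within the lower codes both did (-3.37, adjusted p = 0.000287 and -2.26, adjusted p = 0.00881).

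**Figure D3:**
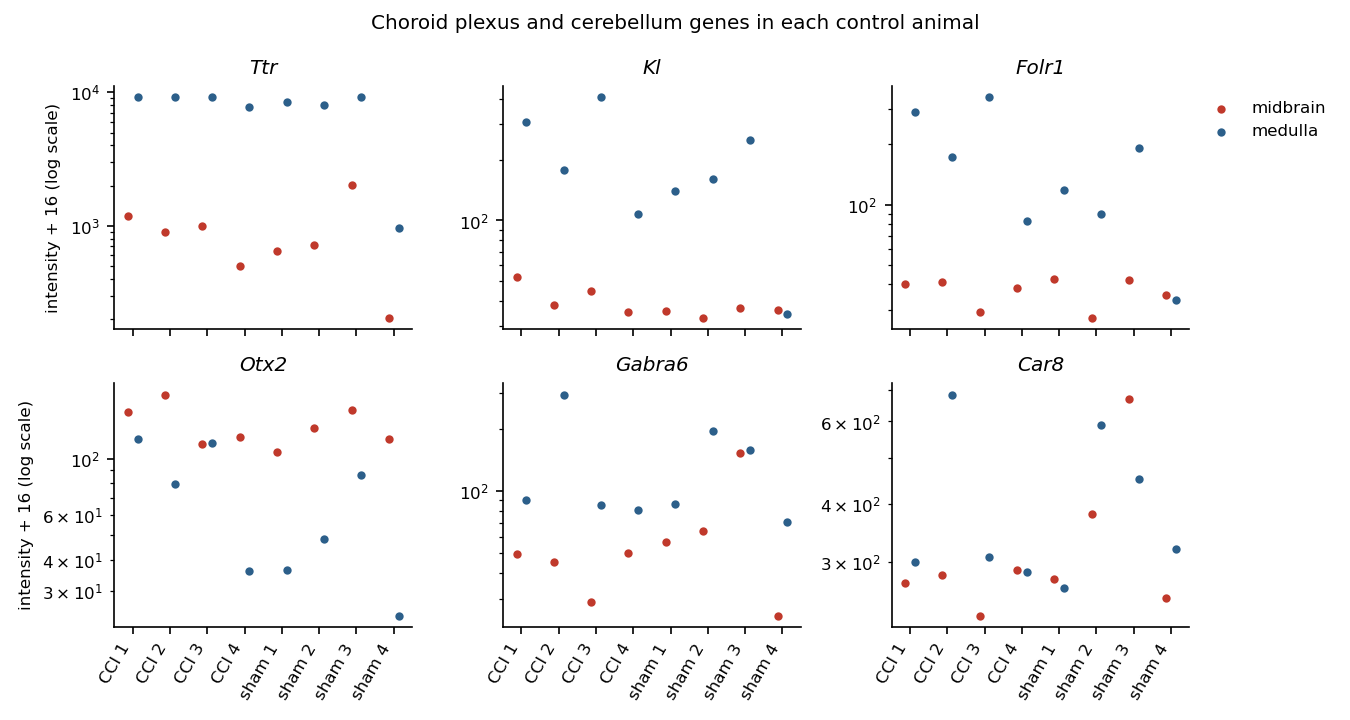
Normalized intensity plus 16, on a log axis, of 4 choroid plexus genes (Ttr, Kl, Folr1, Otx2) and 2 cerebellum genes (Gabra6, Car8) in each of 8 control animals, with midbrain in red and medulla in blue. Sham 4 has the lowest medulla value of Ttr (948), Kl (18.3) and Folr1 (17.4), and sham 3 the highest midbrain value of Gabra6 (137) and Car8 (654).

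Genes of other tissue next to the dissected regions were measured beside these. Of 15 cerebellum genes 3 were higher and 3 lower, with a summed level of 3441 to 5642 in midbrain and 3790 to 5871 in medulla, and Cbln3 under background throughout. Gabra6, the GABA-A subunit of cerebellar granule cells, read 8.88 to 137 in midbrain (median 33.7), against 54.8 to 278 in medulla (median 72.4) (log2 difference -1.20, SE 0.37, adjusted p = 0.0446), and its call was lost in 12 of 16 fits that left out 1 array. Gabra6 differed by -1.44 within the lower array codes (adjusted p = 0.161) and -0.96 within the higher code (adjusted p = 0.474). The midbrain of sham 3 stood apart at 137 and was also the highest midbrain array for Pcp2 (370.2) and Car8 (654), both of Purkinje cells. In medulla CCI 2 was the highest for these 3 genes, at 278, 332 and 669. Cbln1, which granule cells and other neurons make, was lower in midbrain (log2 difference -0.70, SE 0.15, adjusted p = 0.00751), and Rgs8, a G protein regulator of Purkinje cells and other neurons, was higher (log2 difference 0.93, SE 0.08, adjusted p = 1.55e-06). Meningeal and fibroblast genes gave 5 of 22 higher and 2 lower in midbrain, with the summed level at 8503 to 11120 in midbrain and 6924 to 10230 in medulla. Of the defining markers Col1a2 was lower (log2 difference -0.36, SE 0.09, adjusted p = 0.0152), though not with the animal as a replicate block (-0.36, adjusted p = 0.0584), Col1a1 (0.03, adjusted p = 0.912) and Dcn (0.01, adjusted p = 0.986) did not pass, and Lum was under background. Col1a2 differed by -0.56 within the lower array codes (adjusted p = 0.044) and -0.16 within the higher code (adjusted p = 0.208). Slc22a6, a transporter of meninges, was higher (log2 difference 0.62, SE 0.11, adjusted p = 0.00169). Slc22a6 differed by 0.34 within the lower array codes (adjusted p = 0.297) and 0.91 within the higher code (adjusted p = 0.0238). Of 7 ependymal genes 2 were lower, Foxj1 (-0.40) and Mia (-0.58). Foxj1 differed by -0.26 within the lower array codes (adjusted p = 0.396) and -0.54 within the higher code (adjusted p = 0.0513). The part of these tissues in the differences above was not tested.

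**Figure D4:**
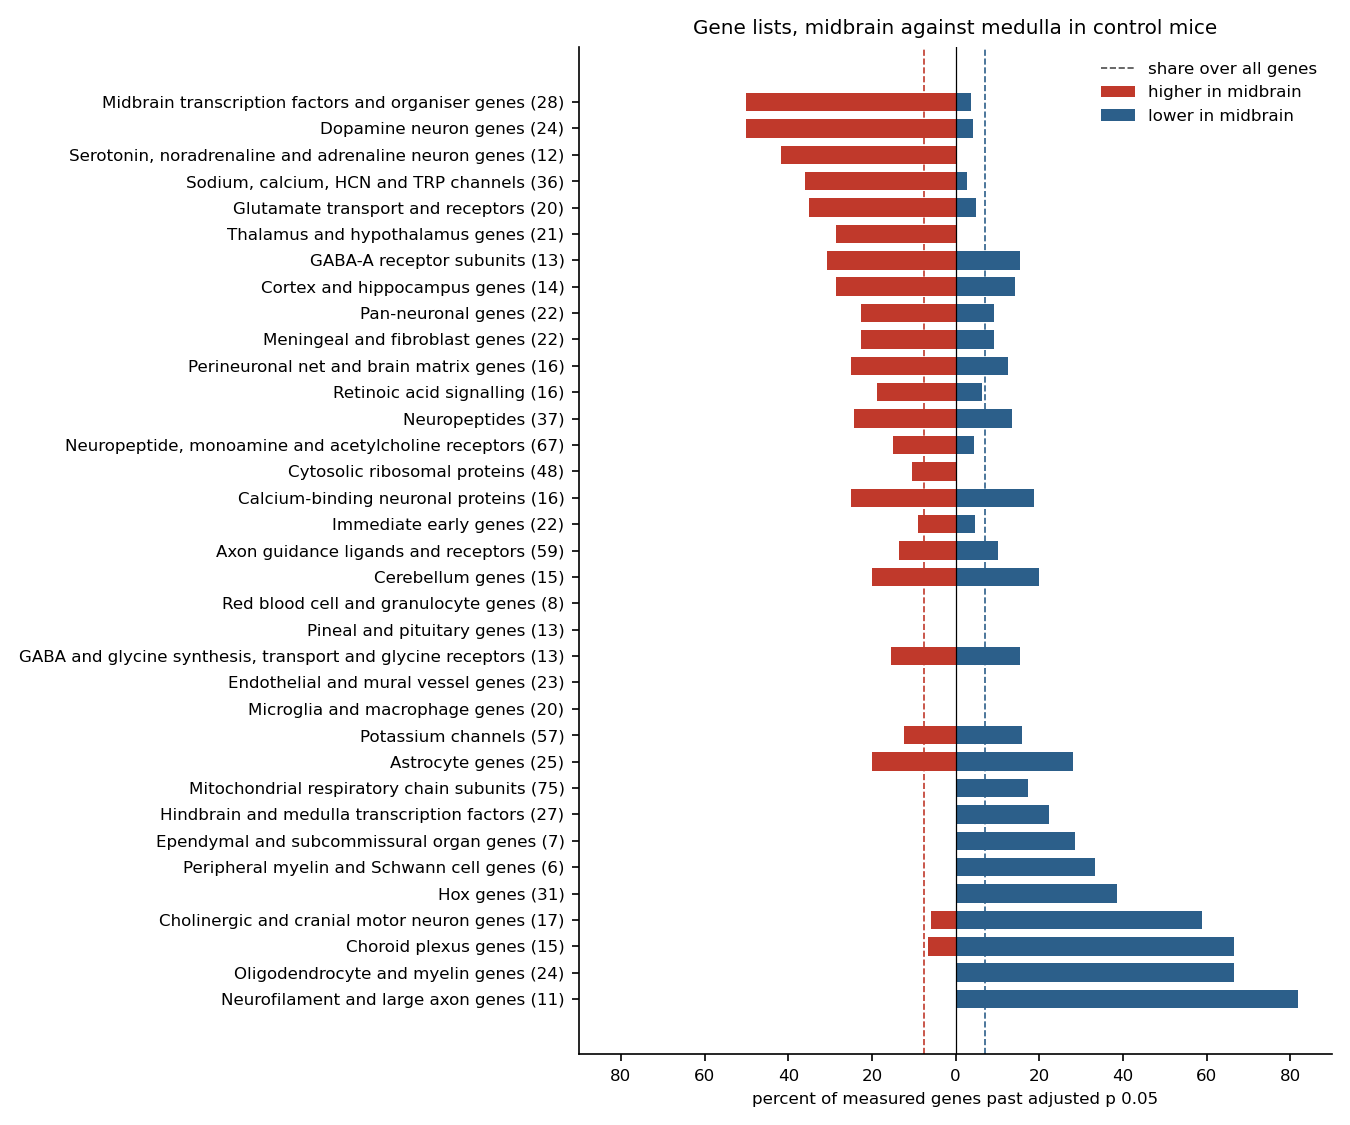
Percent of the measured genes of each list (number in brackets) that were higher (red, to the left) or lower (blue, to the right) in midbrain at an adjusted p under 0.05, with dashed lines at the share over all 12393 genes, 7.67% higher and 7.12% lower. Midbrain transcription factors and dopamine neuron genes lie at the top and neurofilament, myelin, choroid plexus, motor neuron and Hox genes at the bottom. The lists were chosen with earlier results of these data known.

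No probe set showed a regional difference that depended on the operation at the threshold. For the interaction of region with CCI in control mice 0 of 22626 probe sets passed with limma, and 844 (3.73%) had an unadjusted p under 0.05. The median SE of this interaction was 0.17. A call needs a difference of several SE, so interactions well above 0.17 could also be missed with 4 arrays per group. A fit to the CCI arrays alone found 958 probe sets and one to the sham arrays alone 460, which does not show that the operations differ.

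The same regional comparison in KO mice, other animals fitted by themselves, found 1874 probe sets (8.28%), 846 higher (3.74%) and 1028 lower (4.54%) in midbrain. Of the probe sets called in control mice 1381 were also called in KO mice with the same sign, which is 46.8% of the control calls and 73.7% of the KO calls, and 0 were called with the opposite sign. Of the 2954 control calls 96.8% had the same sign in KO mice, against 69.1% of all probe sets. Of the 107 differences of at least 2-fold, 107 had the same sign and 105 were called. Slc6a3 differed by 4.64 in KO mice, Tcf7l2 by 3.44, Th by 1.97, Hoxa5 by -4.06, Prph by -1.70, Nefh by -0.88 and Ttr by -2.73, each on the log2 scale and each past the threshold. Over all genes 926 of the 1833 called in control mice were called in KO mice with the same sign. For Hox genes this was 12 of 12, for neurofilament and large axon genes 9 of 9 and for myelin genes 13 of 16. It was 3 of 6 for hindbrain factors, 6 of 13 for receptors, 2 of 6 for cerebellum genes and 1 of 6 for GABA-A subunits. For the interaction of region with genotype over all 32 arrays 0 probe sets passed with limma, with 861 (3.81%) at an unadjusted p under 0.05 and a median SE of 0.14. A control call that is missing in KO mice is therefore not shown to differ between the genotypes.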

How the data were processed

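Total RNA of midbrain and medulla from each control animal was read on Affymetrix mouse 430A 2.0 arrays, after TRIzol extraction and biotinylated cRNA made from 4 ug of RNA, per the labels' protocols. The deposited values were taken as intensity on a linear scale, judged from the values themselves: 2.02% of the control values are at or below 0, as background subtraction gives, and the array medians are nearly equal (94.8 to 100.1 over the control arrays), as scaling between arrays gives. The software, the method of summarizing probes and any scaling by the authors are not given in the sources used here. From these values, 64 control probe sets were left out, negative values were set to 0, 16 was added, log2 was taken and the 32 arrays were quantile-normalized. limma 3.58.1 in R 4.3.3 was fitted to 4 group means, and the midbrain minus medulla difference was averaged over both operations, with Benjamini-Hochberg adjustment over 22626 probe sets. Replicates within a region are separate animals. The main fit holds no term for the animal, so its p-values and SEs do not use the pairing of regions. A fit with the animal as a block was run as an alternative. KO mice and both interactions were fitted alike.

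Of the probe sets, 20380 have 1 gene symbol, 691 have several and 1555 have none, and 20351 were matched to RefSeq GRCm38.p6. The probe set of highest mean stood for a gene. Named genes are the 15 of greatest difference without overlap in each direction and members of 35 gene lists; the members and lists were chosen with earlier results of these data known. Both regions came from each animal, per the series' design text. Title numbers with consecutive array numbers pair the control arrays. For some KO sham arrays title numbers and array numbers pair differently, and the array numbers were followed. Residuals of the control arrays correlated by 0.166 on average within an animal (0.0623 to 0.364) and by -0.0551 between animals. Alternatives changed the pseudocount, normalization, filter, variance model, weights, blocks and arrays.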

Additional observations from a re-analysis of the deposited data

Results flagged for a closer look

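For 31 of 414 sets of 8 arrays (1 gene in 1 region of control mice) the highest or lowest array stood apart by more than Dixon's 95% critical value for its gap to the nearest array as a part of the whole range; chance does this in about 1 set in 20. A few arrays of sham animals gave many of these values, and no cause was tested. Sham midbrain 3 was high for the cerebellar genes Car8 (654, next 364.8), Gabra6 (137.3, next 48.32) and Pcp2 (370.2, next 198.9) and for Rgs8 (595.4, next 500.1), and low for Cckbr (121.9, next 153.6). Sham medulla 3 was high for En1 (30.81, next 11.9), Irx1 (120.5, next 84.85) and Neurod6 (50.77, next 35.1) and low for Lamp5 (2273, next 2651), Slc32a1 (947.9, next 1025) and Dhh (24.56, next 39.65). Sham medulla 1 was high for Gfap (1850, next 1250), Gad2 (237.6, next 169) and Gjb1 (360.2, next 309.2), and low for Syt1 (281.8, next 426.8), Scn2a (496, next 652.9) and Gria4 (41.61, next 62.23).

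Sham medulla 4 was low for Ttr (948.4, next 7791) and high for Kcnj14 (153.4, next 101.2) and Tbr1 (15.83, next 7.299, under background). CCI midbrain 3 was high for Lhx2 (222.4, next 134.4) and Neurod6 (63.58, next 27.92), and CCI medulla 3 high for Prph (337.8, next 264) and low for Scg2 (2074, next 2245). CCI midbrain 1 was high for Prph (98.28, next 71.64) and Sox14 (75.25, next 60.24). Sham midbrain 1 was high for Sncg (540.1, next 443.4), Slc7a10 (482.4, next 416), Calb2 (1524, next 1289) and Fgf20 (72.44, next 47.75), and sham midbrain 4 for Avp (176.5, next 114).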

How the results depend on the processing

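Of 142 named genes that passed, none changed direction under any alternative run. With fewer arrays many lost their call: 59 with sham arrays only, 29 with CCI arrays only, 41 within the lower array codes and 59 within the higher code. Gabra6 alone lost its call when 1 control array was left out (in 12 of 16 fits, adjusted p up to 0.503 over all alternatives). The count of 2954 probe sets ran from 2464 to 2855 with 1 array left out. Other fits kept all control arrays and probe sets. In these it ran from 2231 (all 32 arrays in the fit) to 3946 (animal as a replicate block), with 3908 for array code as a block. It was 1965 with 1 probe set per gene and 107 with a 2-fold limit. With fewer arrays it was 460 (sham), 958 (CCI), 637 (lower codes) and 502 (higher code). With the animal as a replicate block it was 3946, and the calls of Fos and Pax7 were gained (adjusted p = 0.0442 and 0.0291) and that of Col1a2 was lost (adjusted p = 0.0584). The block gave 2432 in KO mice and 0 for both interactions. The interaction with operation gave 0 to 1 with 1 array left out (1 without CCI midbrain 2) and that with genotype 0 to 0. The KO count ran from 1371 to 2365 with 1 array left out and was 3150 with array weights. The cause of these shifts was not tested. With 1 animal left out, the mean difference of the Gapdh ratio was -0.0395 to -0.0324 (exact permutation p = 0.0156 each) and that of Actb 0.00399 to 0.0388 (p = 0.156 to 0.828). Genes under the background level are limited by signal, not by the number of arrays alone, and hold no measured fold.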
